A study of Homo sapiens with 12 samples.

Results

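Tumours given the highest dose of ceritinib, 100 mg/kg, were compared with control tumours, 3 against 2 and 5 of the 12 tumours profiled. Tumours were taken by their titles, and every gene detected on at least 2 of the 12 arrays was tested, which gave 12300 genes. All tumours were xenografts in mice of H3122, a long-established line of human lung adenocarcinoma cells that carry the EML4-ALK fusion. The other 7 tumours had received 75 mg/kg (4) or 87.5 mg/kg (3) and entered the same fit. According to the study's design text, tumours under ceritinib first lost volume and came back as resistant tumours between 24 and 108 days. No treated tumour from before regrowth and no resistant tumour off the drug is named in the labels, so an effect of the drug and a trait of resistance cannot be told apart here. Whether each tumour came from a mouse of its own is not stated either, and the p-values measure the spread between these tumours. What the controls were given is not stated beyond the word control.

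The EML4-ALK fusion keeps the ALK kinase active without its ligand and feeds growth signals through the ERK, PI3K and STAT3 pathways. Ceritinib occupies the ATP pocket of ALK and shuts this signal off. Resistance in ALK-driven lung cancer is known to arise from mutations in ALK, from other receptor kinases that take over the same pathways, or with a shift from epithelial to mesenchymal traits, such as loss of cadherin junctions and gain of a motile, matrix-producing state. Arrays of this kind read RNA levels, not mutations or kinase activity. In bulk tumours a lower level can come from fewer cells of a type or from less RNA per cell, which cannot be told apart. Human probes read the mouse host's cells only through cross-hybridisation.

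The 5 arrays detected 18258 to 19478 of 47323 probes. Both controls correlated at 0.9865 with each other and the 3 tumours at 100 mg/kg at 0.9828 to 0.9883, while a control with a tumour at 100 mg/kg gave 0.9356 to 0.9479. The first principal component took up 41.9% of the variance, and on it the tumours at 100 mg/kg lay at 23.1, 29.9 and 19.9 and the controls at -54.3 and -52.8. The tumours at 75 mg/kg lay between 2.97 and 16.5 and those at 87.5 mg/kg between -10.1 and 1.71, so the 3 tumours at the highest dose were the farthest from the controls on this axis. Replicate 2 at 87.5 mg/kg stood apart on the second component, at 39.7.

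At 100 mg/kg, 2723 of 12300 genes (22.1%) differed from control at a Benjamini-Hochberg adjusted p under 0.05 in limma, 1469 higher (11.9%) and 1254 lower (10.2%). Genes past the threshold and over 2-fold numbered 1229 (9.99%), of which 602 were higher and 627 lower. At an unadjusted p under 0.05 there were 4340 (35.3%), and in 6685 genes (54.3%) the groups did not overlap. On unnormalized signals the split was 842 higher and 1844 lower, with the median of all genes at -0.08. Of the genes that passed, 186 (1.51%) were detected in all 3 tumours at 100 mg/kg and in no control, and 146 (1.19%) in both controls and in no tumour at 100 mg/kg. The 2 controls decided much of the count: 1435 genes passed without control replicate 1 and 1623 without control replicate 2. The calls of 1008 genes (8.2% of those tested), 510 higher and 498 lower, were kept whichever of the 5 tumours was left out. Below, a gene is said to have kept its call in this sense. Levels are log2 signals, and differences are log2 values, 100 mg/kg minus control, with their standard error (SE). The median difference over all tested genes was 0.04.

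**Figure D1:**
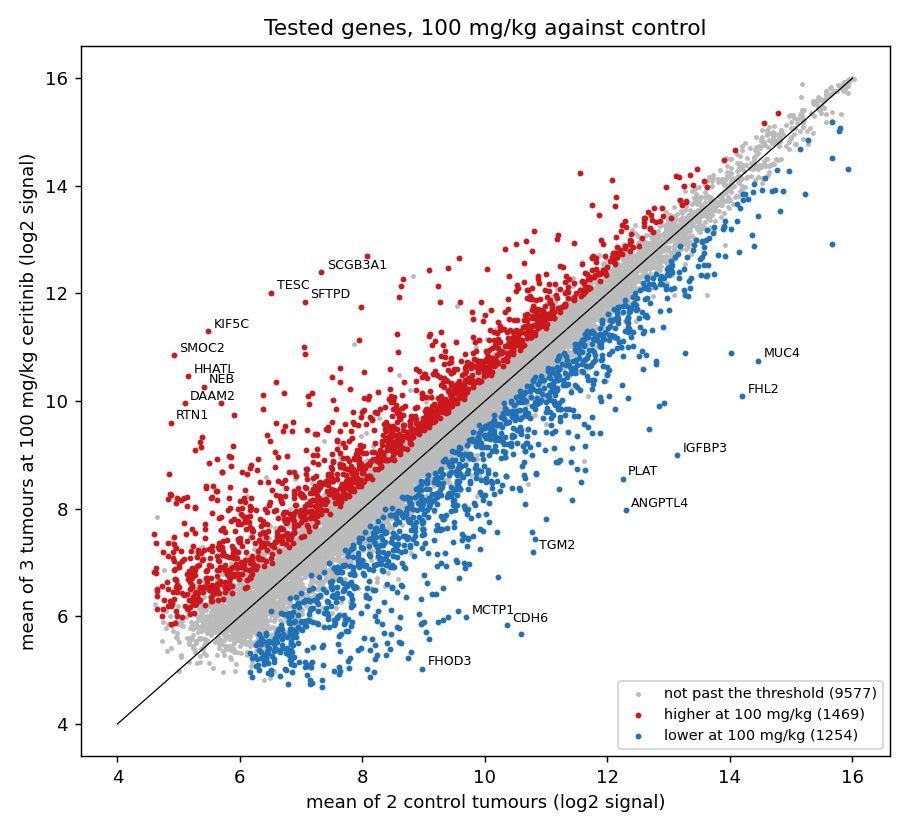
Mean log2 signal of each of 12300 tested genes in the 2 control tumours (horizontal axis) and in the 3 tumours at 100 mg/kg (vertical axis), with genes higher at 100 mg/kg in red, lower genes in blue and the others in grey. The line marks equal means, and 1469 red points lie above it against 1254 blue points below it.

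KIF5C, a kinesin heavy chain of neurons, was at 5.52 and 5.44 in the controls and at 11.62, 11.16 and 11.10 at 100 mg/kg (difference 5.82, SE 0.69, adjusted p = 0.000227). It was detected in neither control, and its increase was at least 37.2-fold. Such a bound is given where no array of 1 group detected any probe of a gene, and sets each undetected signal at the lowest detected one of its array. SMOC2, which encodes a secreted matrix protein, had 5.02 and 4.82 in the controls against 9.23, 9.56 and 13.75 (at least 27.3-fold, adjusted p = 0.00455). Replicate 3 lay far above the other tumours for this gene. Without it the bound was 9.99-fold, and the fitted difference of 5.93 was 4.48 without it, 6.74 without replicate 1 and 6.57 without replicate 2. HHATL, a relative of the acyltransferase that acts on hedgehog ligands, rose from 5.01 and 5.32 to 10.39, 10.72 and 10.29 (at least 20.9-fold, adjusted p = 4.5e-05).

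The muscle gene NEB, which encodes nebulin of thin filaments, rose at least 18.1-fold, to 9.93, 10.32 and 10.52. DAAM2, a formin of the Wnt pathway, rose at least 14.8-fold (difference 4.87, SE 0.33), with 9.97, 10.05 and 9.87 in the treated tumours. MAL, a membrane protein of apical transport, rose at least 14.7-fold. In these 3 genes every tumour at 100 mg/kg lay far above both controls. The highest and lowest genes were named only where groups did not overlap, which held for 54.3% of all genes. TESC, which encodes the calcium-binding protein tescalcin, was detected in both groups and rose 45.1-fold, from 6.65 and 6.38 to 12.05, 11.97 and 12 (SE 0.51 on the log2 scale, adjusted p = 5.04e-05). The treated tumours lay close together here.

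Further down the same ranking, the calmodulin relative CALML3 rose by 3.96 (SE 0.36), the synaptotagmin gene SYT13 at least 9.53-fold and ELAPOR1, an endosomal and lysosomal protein gene, at least 8.96-fold. ELAPOR1 was lowest in replicate 1 (8.01 against 10.09 and 9.62), and its difference of 3.90 was 4.52 without that tumour. RTN1, a reticulon of neuroendocrine cells, had 5 and 4.73 in the controls and 9.88, 9.46 and 9.47 in the treated tumours (difference 4.73, SE 1.39, adjusted p = 0.0314). Its groups were far apart, yet the call was lost without any 1 of the 5 tumours, with adjusted p = 0.0747, 0.0672 and 0.0601 without replicates 1, 2 and 3 at 100 mg/kg and 0.117 and 0.135 without control replicates 1 and 2. The other probe of RTN1 gave a difference of 0.32.

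**Figure D2:**
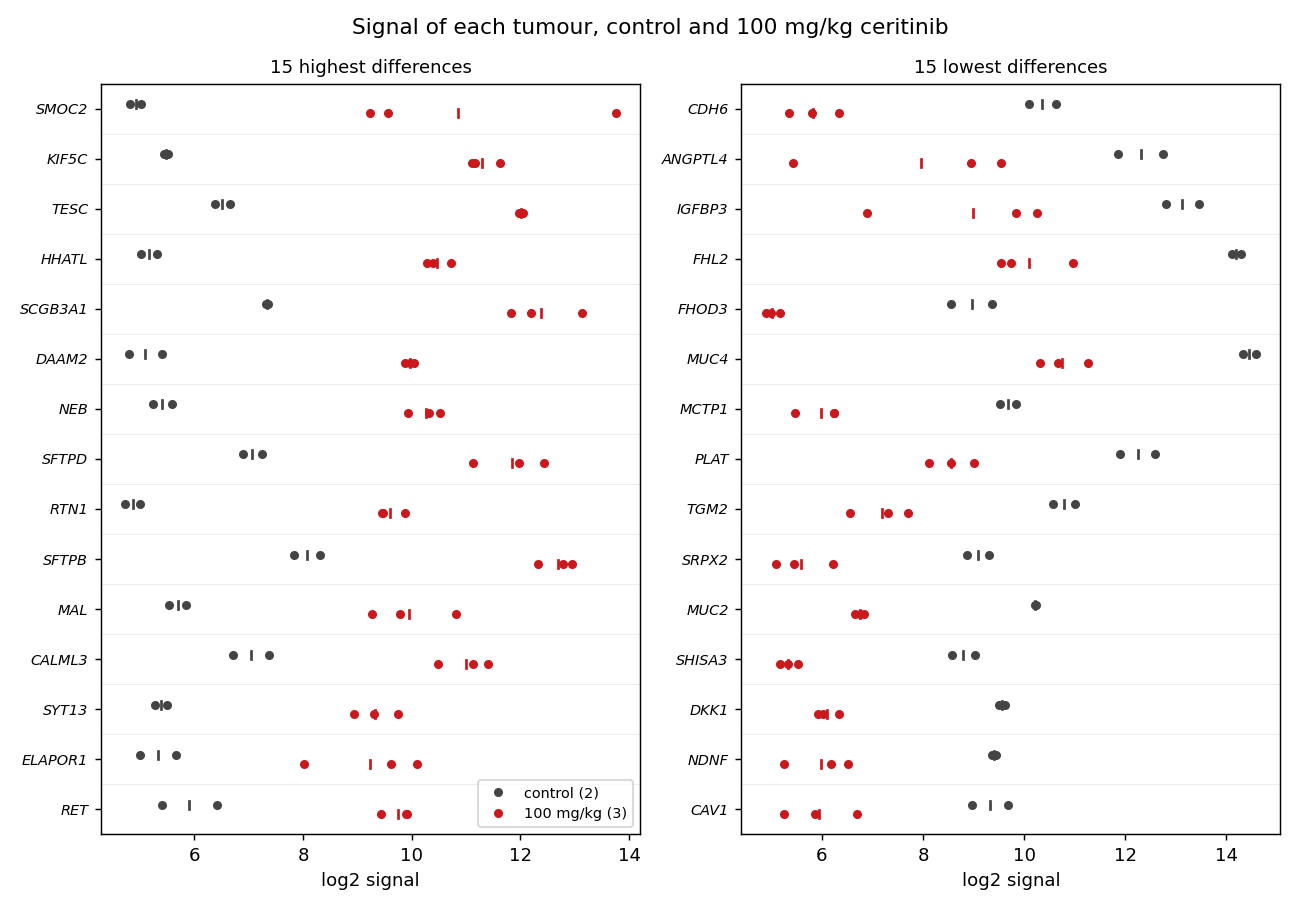
Log2 signal of the 15 genes with the highest and the 15 with the lowest differences among genes past the threshold whose groups did not overlap, with each point 1 tumour, control in grey and 100 mg/kg in red, and a tick at each group's mean. The gaps are wide and of both directions, and single tumours stand apart in SMOC2 (replicate 3) and in ANGPTL4 and IGFBP3 (replicate 1).

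CDH6, a cadherin of the developing kidney, had 10.09 and 10.63 in the controls and 5.35, 6.34 and 5.80 at 100 mg/kg, where 1 of 3 tumours detected it (difference -4.53, SE 0.35, adjusted p = 2.03e-05). FHL2, a LIM domain adaptor of the cytoskeleton, fell from 14.29 and 14.11 to 9.55, 9.75 and 10.97 (difference -4.11, SE 0.49). MUC4, a membrane mucin, fell from 14.59 and 14.33 to 10.31, 11.27 and 10.67 (difference -3.71, SE 0.52), although its dimmer probe differed by -0.37. FHL2 and MUC4 were bright in both controls, and no treated tumour reached them, as the choice of genes required.

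Other genes of this group were FHOD3, a formin of muscle fibres (at least 7.3-fold lower), TGM2, the tissue transglutaminase that crosslinks matrix (difference -3.60), MUC2, a gel-forming mucin of the gut (difference -3.48), and CAV1, the coat protein of caveolae (difference -3.39). DKK1, a secreted Wnt inhibitor, was at 9.50 and 9.62 in the controls and at 5.93, 6.34 and 6.02 at 100 mg/kg. The differences of MCTP1, SRPX2 and NDNF were -3.71, -3.51 and -3.43. SHISA3, which in Xenopus holds back Wnt and FGF receptors, was found in each control but in none of the tumours at 100 mg/kg (at least 6.52-fold lower). Also lost from detection were IL18R1, the receptor of interleukin 18 (at least 7.7-fold lower), the collagen gene COL5A1 (at least 7.48-fold, and 4.62-fold without control replicate 2), PAPSS2, which makes the sulphate donor of the cell (at least 5.64-fold), and RAMP1, a partner of the calcitonin receptor family (at least 5.12-fold). The genes of this paragraph all kept their calls, and CAV1 had another probe at -0.79.

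ANGPTL4 and IGFBP3, both known to rise in hypoxia, depended on single tumours. ANGPTL4, an inhibitor of lipoprotein lipase, had 11.86 and 12.75 in the controls and 5.42, 9.55 and 8.94 at 100 mg/kg. This gene differed by -4.33 (SE 1.29, adjusted p = 0.0339), against -1.77 for its other probe. It lost its call without replicate 1 at 100 mg/kg (-3.06, adjusted p = 0.0901) and without control replicate 1 (0.101) or 2 (0.169), and its difference was -5.12 without replicate 2. IGFBP3, a carrier of insulin-like growth factors, had 12.81 and 13.46 against 6.89, 10.25 and 9.84 (difference -4.14, SE 0.94, adjusted p = 0.00955), with -3.09 without replicate 1, -4.77 without replicate 2 and adjusted p = 0.0715 without control replicate 2. In both genes replicate 1 lay lowest by over 2 log2 units.

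Of the genes named by the study's question, which concerns epithelial-mesenchymal transition, all that passed the threshold were lower at 100 mg/kg. ALK, the drug's target, had 11.44 and 11.73 in the controls and 12.46, 12.47 and 12.85 at 100 mg/kg, all above both controls, without passing over all genes (difference 1.01, SE 0.44, adjusted p = 0.124). It passed with only these 5 tumours in the fit (adjusted p = 0.0132) and without replicate 3 at 87.5 mg/kg (0.0202). EML4 differed by 0.03 (SE 0.14). A probe at 1 place of the transcript does not tell the fusion from the normal genes.

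CDH1, the cadherin of epithelial junctions, fell from 13.89 in both controls to 13.42, 13.00 and 13.17 (difference -0.69, SE 0.15, adjusted p = 0.00626), and kept its call. CDH2, the cadherin that mesenchymal cells carry in its place, fell further, from 13.00 and 12.61 to 10.96, 10.60 and 10.51 (difference -2.11, SE 0.36, adjusted p = 0.00188). VIM, which encodes the intermediate filament of mesenchymal cells, had 10.66 and 10.96 against 10.51, 9.32 and 9.76 (difference -0.95, SE 0.29, adjusted p = 0.0357). Replicate 1 at 100 mg/kg lay close to the controls for VIM, and the call was lost without replicate 2 (adjusted p = 0.1) or 3 (0.0828) or control replicate 1 (0.087) or 2 (0.194). AXL, a receptor kinase tied to mesenchymal resistance, had 6.06 and 7.09 in the controls, of which 1 was detected, and 5.21, 5.28 and 5.77 in the treated tumours, none detected (difference -1.16, adjusted p = 0.0452). Its call was lost without control replicate 2 (adjusted p = 0.354), without replicate 1 (0.117) or 2 (0.111) at 100 mg/kg, without replicate 2 (0.0595) or 4 (0.0609) at 75 mg/kg, and without replicate 1 at 87.5 mg/kg (0.0587). MET, another receptor kinase, fell by 0.75 (SE 0.16, adjusted p = 0.0072), with 0.0597 without control replicate 1. HDAC1, a class I histone deacetylase, fell by 0.51 (adjusted p = 0.0261), with 0.261 without control replicate 1 and 0.0782 without replicate 1 at 100 mg/kg, while HDAC2 differed by 0.12 (adjusted p = 0.608). ZEB1 and SNAI1, repressors of CDH1, were not tested because too few arrays detected their probes.

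Among receptor kinases and ligands able to stand in for ALK, the changes ran both ways. Of 19 tested, 4 rose and 5 fell (47.4% against 22.1% of all genes), and the median was -0.28. Without control replicate 1, control replicate 2 or replicate 1 at 100 mg/kg, 3 fell. RET, the receptor of glial-derived growth factors, rose from 6.41 and 5.40 to 9.43, 9.90 and 9.91 (difference 3.84, SE 0.39, adjusted p = 9.59e-05). KIT, the stem cell factor receptor, rose from 7.83 and 7.44 to 10.54, 10.94 and 10.36 (difference 2.98, SE 0.31), and the ligand gene EGF by 2.03 (SE 0.32). For all 3 genes every treated tumour lay above both controls (groups did not overlap in 54.3% of all genes), and the calls were kept. FGFR3, a fibroblast growth factor receptor, fell from 11.52 and 11.74 to 8.43, 9.03 and 10.04 (difference -2.46, SE 0.51), and EPHA2, an ephrin receptor, by 2.27 (SE 0.37).

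Downstream of these receptors, IRS1, the docking protein of the insulin receptor, fell from 9.28 and 9.15 to 7.24, 7.04 and 7.16 (difference -2.07, SE 0.18, adjusted p = 4.05e-05), while the adaptor gene GAB2 rose by 0.67 (SE 0.13). Of 13 adaptors and SRC family kinases, 2 rose and 3 fell, 1 and 1 without control replicate 1 and 2 and 1 without control replicate 2. Genes that follow ERK activity were mixed: of 18 tested, 2 rose and 6 fell (median -0.62), 3 fell without control replicate 1, and 0 to 1 rose without any 1 of the 5 tumours. Called were 38.5% of the adaptors and SRC family kinases and 44.4% of the ERK genes, against 22.1% of all genes. DUSP5, a nuclear ERK phosphatase, fell from 11.03 and 11.79 to 8.76, 8.68 and 9.14 (difference -2.55, SE 0.34), and SPHK1, a sphingosine kinase, was at least 4.94-fold lower. The feedback inhibitor genes SPRY1 and SPRY2 went apart, with SPRY1 higher by 0.74 (adjusted p = 0.0826 without control replicate 2) and SPRY2 lower by 0.63 (0.0676 without control replicate 1).

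Regulators of cell death changed on both sides of their balance. BCL2, the founding survival protein of its family, rose from 7.77 and 7.25 to 10.21, 10.70 and 10.42 (difference 2.94, SE 0.27, adjusted p = 5.04e-05), a 7.66-fold difference. Its 3 probes differed by 0.34 to 2.97. Of the opposing group, which triggers death, 3 genes fell: BIK from 9.86 and 9.91 to 7.98, 7.86 and 7.82, PMAIP1, also called NOXA, by 1.63 (SE 0.30), and BID by 1.6 (SE 0.18). BOK, a pore-forming member of that group, rose by 1.28 (SE 0.16). Of 16 family members tested, 3 rose and 3 fell (37.5% together, against 22.1% of all genes), with a median of -0.05.

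Genes that anchor cells to their matrix fell together more often than genes at large, in lists chosen with earlier results of these data known. Of 17 integrins, the receptors for matrix, 9 fell and 0 rose (52.9% against 10.2% of all genes that fell), with a median of -0.67. ITGA5, the fibronectin receptor chain, fell from 9.61 and 9.70 to 7.50, 7.53 and 7.39 (difference -2.18, SE 0.20). ITGA2, a collagen receptor chain, fell from 11.70 and 11.68 to 9.71, 9.32 and 9.53, and ITGB4, which binds laminin in hemidesmosomes, by 1.46 (SE 0.22). In each of these genes the treated tumours all lay below both controls (groups did not overlap in 54.3% of all genes). Without control replicate 1, 5 integrins fell.

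Laminins and other basement membrane genes had 7 of 11 lower and 0 higher (63.6% against 10.2% of all genes), with a median of -1.39. COL7A1, the collagen of anchoring fibrils, fell from 10.69 and 10.94 to 7.95, 7.15 and 7.20 (difference -3.38, SE 0.42). LAMB3, a chain of the laminin of epithelial basement membranes, fell from 11.17 and 11.68 to 8.99, 8.03 and 7.45 (difference -3.26). DST, a linker of hemidesmosomes to filaments, fell by 1.97 and LAMC1, a chain common to many laminins, by 0.88 (SE 0.15).

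Mesenchymal and epithelial lists both had more members lower than higher. The lower calls were 47.8% and 40% of these lists, against 10.2% of all genes. Of 23 mesenchymal and contractile genes, 11 fell and 1 rose (median -0.77), with 6 and 5 lower and 0 higher without control replicates 1 and 2, and 0 higher without replicate 1 or 3 at 100 mg/kg. CDH11, a cadherin of fibroblasts, fell from 9.66 and 9.82 to 7.42, 6.90 and 6.59 (difference -2.77, SE 0.27), TNC, the matrix protein tenascin, from 14.04 and 13.97 to 11.17, 10.53 and 10.98, and SNAI2, a transcription factor of the transition, at least 1.61-fold. COL5A1, a fibrillar collagen, had 8.30 and 9.70 against 5.96, 5.95 and 5.76, and its difference of -3.11 was -3.81 and -2.42 without control replicates 1 and 2. Genes that mark fibroblasts moved with this list: their summed signal was 2070 and 2150 in the controls and 1010, 875 and 839 at 100 mg/kg, and 4 of 5 tested fell (LUM, COL1A1, COL1A2 and FAP), 1 without control replicate 1 and 0 without control replicate 2. Of these tested markers 80% were called lower, against 10.2% of all genes. Their part in the result was not tested.

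Of 30 epithelial markers, 12 fell and 0 rose (40% lower, median -0.42), and 5 fell without control replicate 1. CDH3, the placental cadherin of basal cells, fell from 11.15 and 11.18 to 8.96, 8.82 and 8.84 (difference -2.29, SE 0.20, adjusted p = 3.93e-05). KRT7, a keratin of simple epithelia, fell from 12.62 and 12.58 to 11.32, 11.30 and 11.29 (difference -1.30, SE 0.20), and CDS1, a lipid enzyme of epithelial cells, by 1.15 (SE 0.15). In these genes the treated tumours lay close together and below both controls (groups did not overlap in 54.3% of all genes).

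Squamous genes, those of stratified epithelium, had a median of -1.67, which ran from -1.82 to -0.87 over the alternatives. Of 16 tested, 8 fell and 1 rose (50% lower, against 10.2% of all genes). SPRR3, a protein of the cornified layer, was at 7.66 and 7.89 in the controls and undetected at 100 mg/kg (at least 3.2-fold lower), and so was the basal keratin KRT14 (at least 2.85-fold, and 1.75-fold without control replicate 2). The fitted difference of KRT14 was -2.54, and -3.25 and -1.84 without control replicates 1 and 2. The 1 that rose was CALML3, given above.

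**Figure D3:**
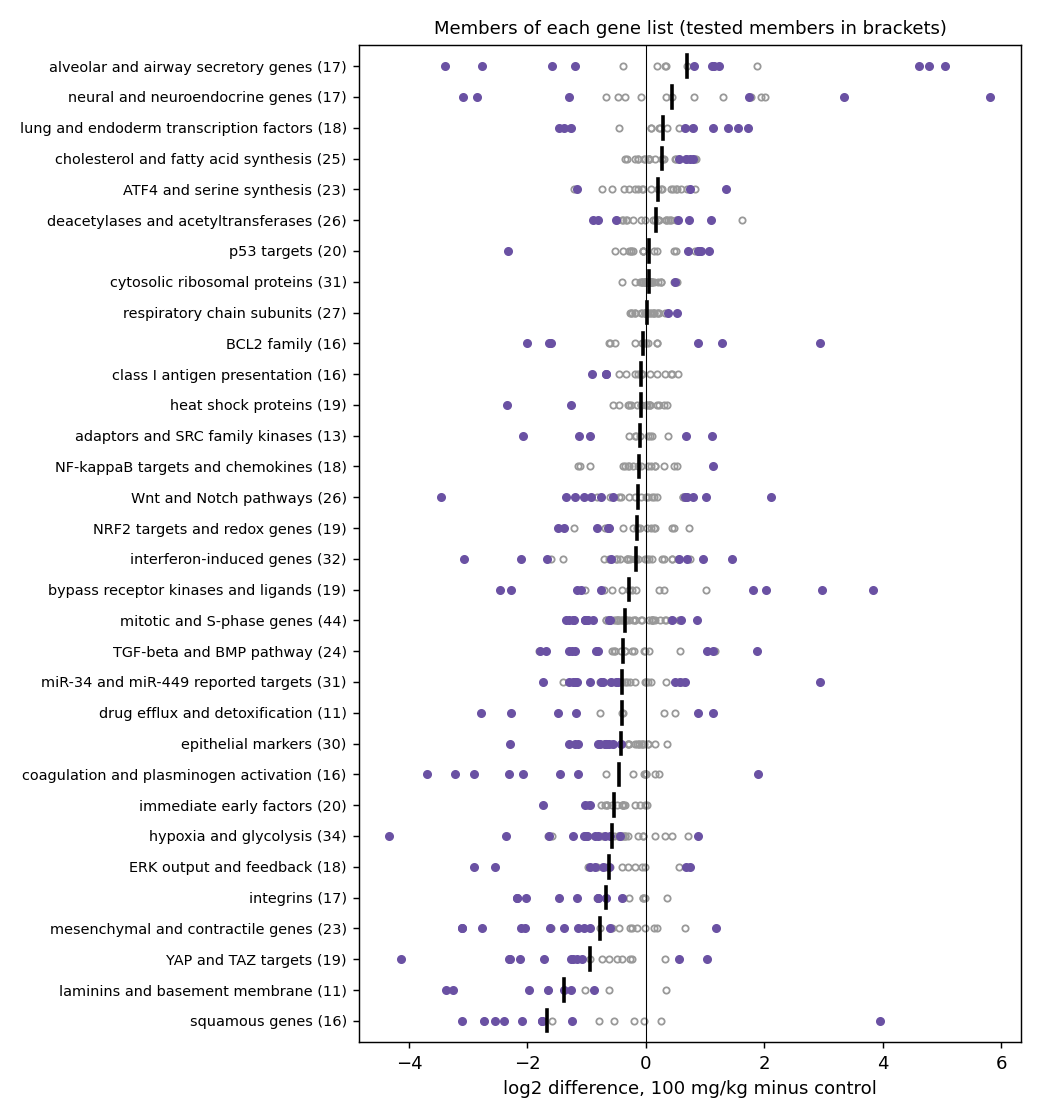
Log2 difference, 100 mg/kg minus control, of every tested member of each gene list, filled where the gene passed the threshold and open where it did not, with a bar at the list's median and the number of tested members in brackets. Among the lists plotted, which leave out the cell type markers other than epithelial, medians run from -1.67 for squamous genes to 0.69 for alveolar and airway secretory genes, and most lists hold members on both sides of 0.

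Genes of alveolar and airway secretion had a median of 0.69, with 7 of 17 higher and 4 lower (64.7% in all, against 22.1% of all genes). SFTPD, a surfactant protein that binds microbes, rose from 6.89 and 7.24 to 11.98, 12.44 and 11.12 (difference 4.78, SE 0.31, adjusted p = 1.1e-05). SFTPB, which spreads the surfactant film, rose from 8.31 and 7.83 to 12.79, 12.95 and 12.32 (difference 4.61, SE 0.36). SCGB3A1, a secretoglobin of airway club cells, rose from 7.32 and 7.35 to 12.20, 13.13 and 11.83 (33.2-fold). Replicate 2 was the highest and replicate 3 the lowest of the treated tumours in each of these 3 genes.

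Other genes of surfactant handling rose less, ABCA3, the lipid pump of lamellar bodies, by 1.15 (SE 0.18) and LPCAT1, an enzyme of surfactant lipid synthesis, by 1.12 (SE 0.14). Other members of the list fell, CAV1 as given above, and the mucin gene MUC1 from 15.70 and 15.64 to 12.14, 13.94 and 12.64 (difference -2.77, SE 0.45). NKX2-1, the transcription factor that switches on surfactant genes, was 0.79 higher (SE 0.18, adjusted p = 0.0087), with 0.0717 without control replicate 1. Of 18 lung and endoderm transcription factors, 6 rose and 3 fell, and 0 of these calls were kept whichever tumour was left out (3 and 0 without control replicate 1, 1 and 3 without control replicate 2, and 3 and 3 without replicate 3 at 100 mg/kg). Called were 50% of these factors, against 22.1% of all genes. The letters CAAGTG or their reverse complement CACTTG are a core bound by NKX2-1. Promoters (250 bases before to 50 after the start) in the RefSeq table covered 15 genes of the secretory list. The letters stood in 2 of these, 13.3% against 13.8% of all 27305 genes of that table.

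Neural and neuroendocrine genes moved in both directions, 3 higher and 3 lower of 17 (35.3% together, against 22.1% of all genes). SCG5, a chaperone of hormone processing in secretory granules, rose from 9.01 and 9.17 to 12.54, 12.61 and 12.16 (difference 3.35, SE 0.26). ZIC2, a transcription factor of the neural plate, was at 8.5 and 8.26 in the controls and undetected in all 3 tumours at 100 mg/kg (at least 4.86-fold lower). TUBB3, a tubulin of neurons, fell by 1.29 (SE 0.27).

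Of 16 genes of clotting and plasminogen activation, 7 fell and 1 rose, and all 8 calls were kept whichever tumour was left out. PLAT, the tissue plasminogen activator, fell from 11.90 and 12.59 to 8.11, 9.01 and 8.55 (difference -3.69, SE 0.40, adjusted p = 0.000123). PLAU, the urokinase activator, fell by 2.91 (SE 0.48) and its receptor PLAUR by 2.08 (SE 0.20). F3, the tissue factor that starts clotting, fell from 11 and 11.46 to 9.23, 8.67 and 8.84, THBD, the thrombin receptor thrombomodulin, at least 4.27-fold, and the inhibitor TFPI by 1.45. Activators and inhibitors of clotting thus both fell. The lower calls were 43.8% of this list, against 10.2% of all genes. SERPINF1, an anti-angiogenic serpin, was the 1 that rose (difference 1.89, SE 0.28).

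Targets of the YAP and TAZ coactivators, which respond to cell shape and adhesion, had 9 of 19 lower and 2 higher (median -0.94). The lower calls were 47.4% of the list, against 10.2% of all genes. NT5E, an ectoenzyme that makes adenosine, fell from 12.18 and 12.49 to 10.39, 10.12 and 9.64, CRIM1, which encodes a membrane protein that binds BMPs, at least 2.82-fold, and MYOF, a membrane repair protein, by 1.72 (SE 0.31). Both calls upward, of AMOTL2 and TGFB2, were lost without any 1 of the 5 tumours, and 6 fell without control replicate 2.

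In the TGF-beta and BMP pathway, 3 of 24 genes rose and 7 fell, and 1 rose without control replicate 2 or without replicate 3 at 100 mg/kg. SMAD3, the transcription factor that carries the TGF-beta signal, fell from 12.64 and 12.61 to 10.81, 11 and 10.74 (difference -1.78, SE 0.24, adjusted p = 0.000469), and its feedback target PMEPA1 by 1.24 (SE 0.22). The BMP target ID3 was detected in neither control and rose at least 3.53-fold, to 7.65, 7.94 and 8.10. In the Wnt and Notch pathways, 5 of 26 rose and 7 fell, 2 and 4 without control replicate 2 and 3 and 2 without control replicate 1. Leaving out replicates 1, 2 and 3 at 100 mg/kg gave 4 and 4, 2 and 5, and 4 and 4. Called were 41.7% of the TGF-beta and BMP list and 46.2% of the Wnt and Notch list, against 22.1% of all genes. AXIN2, a direct Wnt target and feedback inhibitor, rose from 7.77 and 7.24 to 9.66, 9.93 and 9.26 (difference 2.11, SE 0.26), while the Notch target HEY1 fell from 9.12 and 8.86 to 7.56, 7.53 and 7.81 (difference -1.35, SE 0.18).

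Among cell cycle genes more members fell than rose. Of 44 mitotic and S-phase genes, 11 fell and 3 rose (25% lower against 10.2% of all genes, median -0.35). CCNA2, the cyclin of S and G2 phase, fell from 10.74 and 10.45 to 9.25, 9.37 and 9.54 (difference -1.21, SE 0.19), and E2F2, a transcription factor of S-phase entry, rose by 0.87 (SE 0.15). CCNB1, the mitotic cyclin, was 1.30 lower and the mitotic kinase gene PLK1 1.03 lower, and both missed without control replicate 1 (adjusted p = 0.0529 and 0.0504), without which 2 genes fell and 1 rose. Without control replicate 2, 1 rose, and without replicate 1 at 100 mg/kg 7 fell. Of 20 p53 targets, 5 rose and 1 fell, with 2 higher without control replicate 1 and 3 without replicate 1 at 100 mg/kg. SESN1, an inhibitor of mTORC1, rose by 0.93 (SE 0.16) and PLK2, a kinase that p53 induces, fell from 8.27 and 8.21 to 6.51, 5.57 and 5.64 (difference -2.33, SE 0.26). The list's median of 0.05 was near that of all genes, and 30% of it was called, against 22.1% of all genes.

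Hypoxia and glycolysis genes had 12 of 34 lower and 1 higher (35.3% lower against 10.2% of all genes, median -0.57). SLC2A1, the main glucose carrier of tumour cells, fell from 13.11 and 13.41 to 10.46, 11.09 and 11.12 (difference -2.37, SE 0.37), PKM, the last kinase of glycolysis, from 13.97 and 13.88 to 12.42, 12.75 and 12.90 (difference -1.23, SE 0.18), and PFKFB3, which speeds glycolysis, by 0.86 (SE 0.16). The count rested on single tumours: 4 fell without replicate 1 at 100 mg/kg, 3 without control replicate 1, 4 without control replicate 2 and 15 without replicate 3 at 100 mg/kg. The list's median level was 10.74 in replicate 1 against 11.55 and 11.62 in replicates 2 and 3, and 12.28 and 12.36 in the controls. Replicate 1 was thus the tumour with the lowest levels of this list.

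Of 25 genes of cholesterol and fatty acid synthesis, 4 rose and 0 fell (16% called, against 22.1% of all genes). Of the 4 calls, 0 were kept whichever tumour was left out. Without replicate 2 at 100 mg/kg 9 rose, and 2 rose without any 1 of the other 4 tumours. Interferon-induced genes went both ways, 4 up and 4 down of 32, which is 12.5% each way, near the 11.9% and 10.2% of all genes. The counts up and down were 1 and 2 without control replicate 1, 2 and 2 without control replicate 2 or replicate 3 at 100 mg/kg, and 2 up without replicate 2 at 100 mg/kg. HERC5, a ligase for the ISG15 tag, rose by 1.45 (SE 0.17), while IFITM1, which blocks virus entry, fell from 11.58 and 11.54 to 8.67, 8.97 and 7.83 (difference -3.07, SE 0.49) and BST2, the tether of budding virus, by 2.11 (SE 0.39). Among 16 genes of class I antigen presentation, 3 fell and 0 rose (18.8% called, against 22.1% of all genes). Of the 3, 1 kept its call, HLA-E, a ligand of natural killer receptors (difference -0.91, SE 0.16).

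Redox genes under NRF2 had 5 of 19 lower and 0 higher (26.3% called, against 22.1% of all genes). TXNRD1, thioredoxin reductase, was at 11.31 and 11.17 in the controls and 9.85, 9.86 and 9.87 at 100 mg/kg (difference -1.38, SE 0.25). Without control replicate 1, 2 of this list fell. Of 19 heat shock genes 2 fell, 1 without control replicate 1, and the inducible chaperone gene HSPA1B kept its call, with 13.85 and 13.40 against 12.49, 12.05 and 12.53. Of 23 genes of the ATF4 response, 2 rose and 1 fell, the amino acid carrier gene SLC7A5 (difference -1.16, SE 0.23), with 0 to 1 higher without a control or without replicate 2 or 3 at 100 mg/kg. Among 11 genes of drug efflux and detoxification 2 rose and 4 fell, 1 and 2 without control replicate 1, 1 higher without control replicate 2 or replicate 2 at 100 mg/kg, and 2 lower without replicate 1 at 100 mg/kg. ALDH1A2, a retinoic acid enzyme, differed by -2.78 (SE 0.26) and ABCC3, an export pump, by -1.48 (SE 0.28), and both kept their calls. Immediate early factors had 3 of 20 lower (15%) and NF-kappaB targets 1 of 18 higher (5.56%). Of these 4 calls, 0 were kept whichever tumour was left out. Called were 10.5% of the heat shock list and 13% of the ATF4 list. These 4 lists lay below the 22.1% of all genes, and the efflux and detoxification list, at 54.5%, above it.

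Ribosomal proteins of the cytosol (1 of 31 higher) and subunits of the respiratory chain (2 of 27 higher) had fewer calls than the background of 22.1%, with medians of 0.05 and 0.02. Of 26 deacetylases and acetyltransferases, 3 rose and 3 fell, near the background at 23.1%, and 0 of the 6 calls were kept whichever tumour was left out. Without control replicate 1, 0 of them fell.

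Markers of other cell types were few on these arrays. Of 10 endothelial markers 4 were tested, 2 of which rose, or 1 without either control or replicate 1 or 2 at 100 mg/kg. VWF, the clotting factor carrier that these cells secrete, kept its call and rose from 6.55 and 6.69 to 8.99, 9.15 and 8.76 (difference 2.35, SE 0.46). The list's summed signal was 714 and 653 in the controls and 1280 to 1420 at 100 mg/kg. Of 4 macrophage markers tested, 1 rose, the scavenger receptor gene CD163 (at least 2.02-fold), while CD68 differed by 0.17, or by -1.52 with its other probe, and the summed signal overlapped (4060 and 7070 against 5560 to 6740). Of 4 lymphocyte markers tested, 3 rose and 1 fell. GNLY, a granule protein of killer cells, rose at least 5.89-fold to 8.66, 9.05 and 8.20, and kept its call. The other calls of this list were lost without either control, with adjusted p = 0.0592 and 0.0612 for CD8A, 0.147 and 0.11 for CD79A and 0.153 and 0.153 for CD2 without control replicates 1 and 2. Of the tested markers, 50% of the endothelial, 25% of the macrophage and 100% of the lymphocyte list were called, against 22.1% of all genes. Which cells these signals came from was not tested.

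The highest dose was next compared with each of the lower doses, which uses no control in the difference. Few genes passed: 82 of 12300 (0.667%) between 100 and 75 mg/kg, 30 higher and 52 lower at 100 mg/kg, and 96 (0.78%) between 100 and 87.5 mg/kg, 43 higher and 53 lower. At an unadjusted p under 0.05 the counts were 1927 (15.7%) and 1974 (16%). With arrays scaled to 1 median, the splits turned to 53 higher and 29 lower, and to 57 and 40. Both counts ranged widely when 1 tumour was left out, from 0 to 331 and from 0 to 276, and the highest followed the removal of replicate 2 at 87.5 mg/kg. The genes that follow describe this fit, and each named call except that of CCNY was lost with at least 3 of the tumours of its own 2 groups left out in turn.

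PEBP1, a phosphatidylethanolamine-binding protein gene, was at 7.18 and 7.03 in the controls, 8.52 to 9.36 at 75 mg/kg, 8.72 to 9.02 at 87.5 mg/kg and 10.10, 10.08 and 10.09 at 100 mg/kg. The lower doses overlapped, and the tumours at 100 mg/kg lay above all others. Against 87.5 mg/kg its difference was 1.23 (SE 0.18, adjusted p = 0.0353), and against 75 mg/kg 1.24 (SE 0.17, adjusted p = 0.0328), which stayed between 1.13 and 1.41 when tumours of these 2 groups were left out. The syntaxin gene STX19 was at 10.58, 10.52 and 10.70 at 100 mg/kg and at 9.09 to 9.34 at 75 mg/kg (difference 1.35, SE 0.17, adjusted p = 0.0266), with 8.64 and 8.26 in the controls. The circadian repressor gene CIART was higher by 1.46 (SE 0.28). POMC, the pituitary hormone precursor gene, was at 6.29, 7.56 and 7.72 and was detected in all 3 tumours at 100 mg/kg and on no other array (adjusted p = 0.0417).

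Lower at 100 than at 75 mg/kg was CCNY, a membrane-bound cyclin, at 10.12, 9.93 and 10.45 against 11.42 to 11.78 (difference -1.40, SE 0.14, adjusted p = 0.00763). It passed with 5 of 7 tumours left out in turn, and had up to adjusted p = 0.0549 with the others, but its 2 probes disagreed, at -1.24 and 0.51 against control. BMP2, a bone morphogenetic protein, was at 6.42, 6.43 and 6.59 against 7.80 to 7.94 (difference -1.40, SE 0.26), UGCG, the first enzyme of glycosphingolipid synthesis, lower by 1.27 (SE 0.19), and HNRNPL, a splicing factor, by 1.68 (SE 0.28). In BMP2 the tumours at 75 mg/kg lay within or beside the range of the controls (7.46 and 7.90), and the tumours at 100 mg/kg below it.

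Against 87.5 mg/kg, MYH11, the myosin of smooth muscle, was at 7.51, 7.41 and 7.68 and at 4.66 to 5.26 at the lower dose, where no array detected it (adjusted p = 0.0314). UCP2, a carrier of the inner mitochondrial membrane, was higher by 1.30 (SE 0.25). Lower at 100 mg/kg were PLAT, described above, with 8.11 to 9.01 against 10.95 to 11.32 (difference -2.54, SE 0.35, adjusted p = 0.0353), LAMB3 (difference -2.01, SE 0.38), the cadherin gene CDH11 (-1.67, SE 0.24) and RAC2, a GTPase of blood cells (-1.52, SE 0.29). MMP7, a matrix protease gene, was at 6.78 to 7.74 at 87.5 mg/kg and was not detected at 100 mg/kg (adjusted p = 0.0467). For each of these 5 genes the tumours at 87.5 mg/kg lay between the controls and the tumours at 100 mg/kg.

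**Figure D4:**
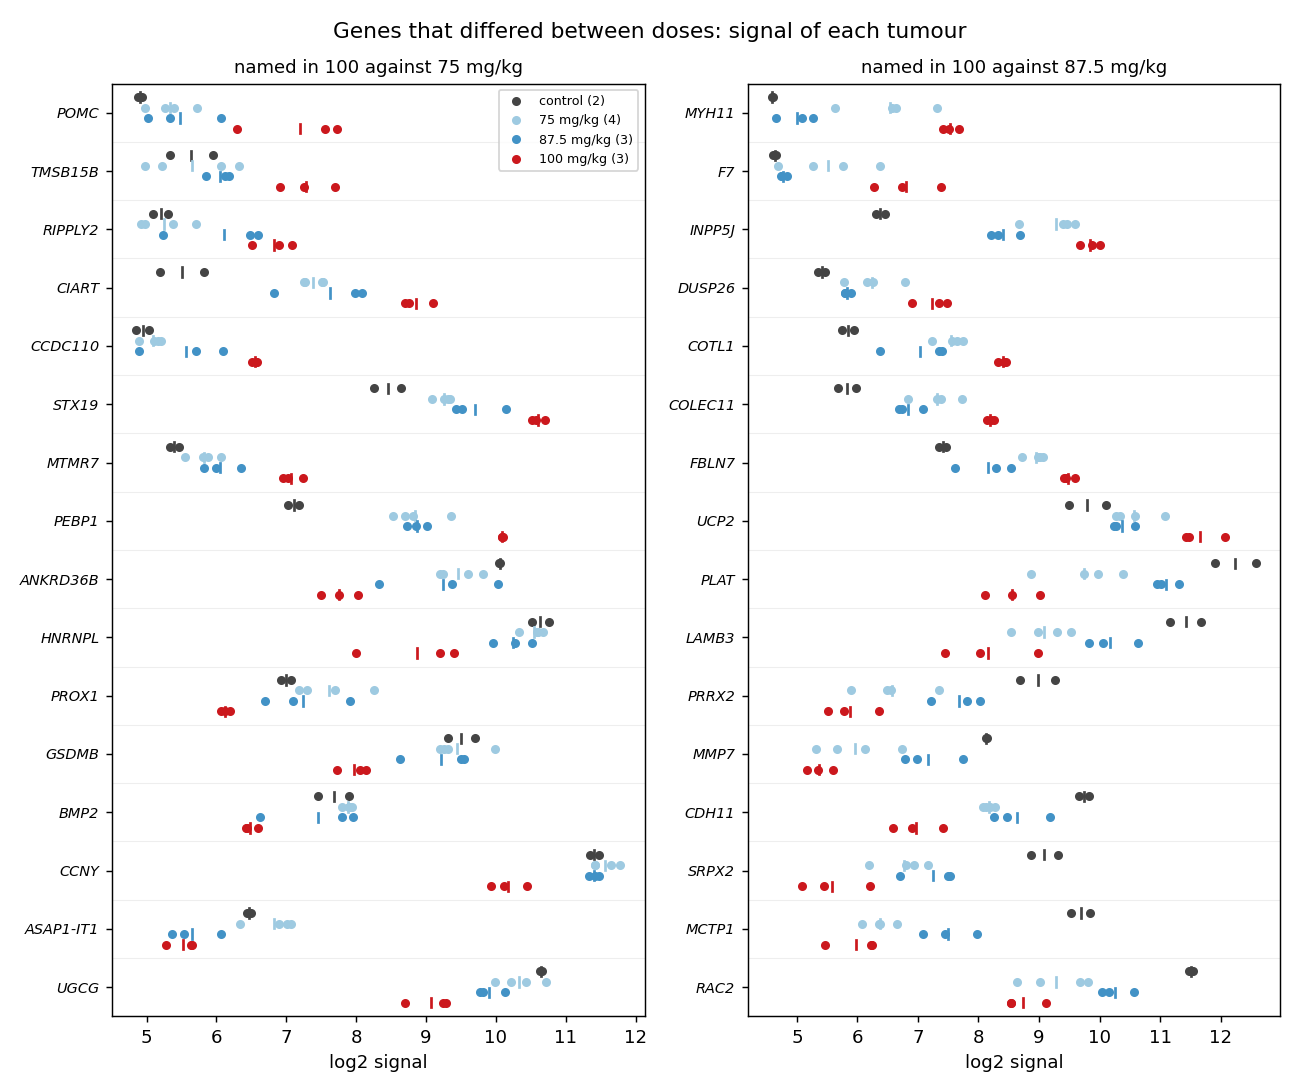
Log2 signal of the genes named in the comparisons of 100 with 75 mg/kg and of 100 with 87.5 mg/kg, with each point 1 tumour and a tick at each group's mean, from controls (grey) over the lower doses (blue) to 100 mg/kg (red). PEBP1 lies near 10.1 in all 3 tumours at 100 mg/kg against 8.52 to 9.36 at 75 mg/kg, and PLAT lies at 8.11 to 9.01 against 10.95 to 11.32 at 87.5 mg/kg.

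The 3 tumours at 100 mg/kg were not alike in every gene. The median range among them was 0.32 log2 units, but 660 genes ranged over more than 1 unit and 53 over more than 2. Genes of motile cilia, the beating cilia of airway cells, stood out among the most variable, and the list of 101 such genes was drawn up after these values had been seen, so the following is a description. Of 55 tested, 48 (87.3%) had their highest level in replicate 2, against 41.5% of all genes, and 48 their lowest in replicate 3, against 36.3%. The list's median level was 7.28, 8.06 and 6.85 in replicates 1, 2 and 3, and 6.48 and 6.39 in the controls. Against control 7 rose and 1 fell (median 0.73). The 7 are 12.7% of the list, near the 11.9% of all genes, and 14.5% of the list was called in either direction, below the 22.1% of all genes. Leaving out 1 tumour gave 19 higher without replicate 3, 2 without control replicate 1 and 3 without control replicate 2, and the 1 lower call was lost without either control or replicate 1 or 3 at 100 mg/kg. Among them CAPSL, a calcium-binding protein gene, had 5.02 and 5.43 in the controls and 7.48, 8.67 and 6.70 at 100 mg/kg (at least 2.9-fold, adjusted p = 0.0065). Its call was lost without control replicate 1 (adjusted p = 0.0592), and its other probe differed by 1.26, against 2.39.

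DNAI1, a chain of the outer dynein arm that drives the beat, had 5.53 and 5.03 in the controls and 7.19, 8.51 and 5.68 (difference 1.85, adjusted p = 0.0973). CFAP126, a basal body protein gene, had 5.42 and 5.11 against 6.37, 8.02 and 5.2 (adjusted p = 0.223). In both, replicate 3 was near the controls and replicate 2 was far above. Neither gene was detected in a control, and each was detected in 2 of 3 tumours at 100 mg/kg. The bounds were at least 2.07-fold for DNAI1 and 1.37-fold for CFAP126. Without replicate 2 they were 1.28-fold and 0.815-fold, so no increase was bounded for CFAP126. FOXJ1, the transcription factor that starts the cilium programme, had 9.51 and 9.43 in the controls and 7.98, 9.18 and 7.42 at 100 mg/kg (difference -1.28, SE 0.59, adjusted p = 0.149), so it followed the same order of tumours but from below the controls.

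CDC20B, which lies in this list because its locus hosts the miR-449 cluster of multiciliated cells, had 5.69 and 5.07 in the controls and 7.62, 8.46 and 5.80 at 100 mg/kg (difference 1.91, SE 0.74, adjusted p = 0.0865). No control detected it, and its increase was at least 2.32-fold, or 1.55-fold without replicate 2. Replicates 1 and 2 at 100 mg/kg were detected and replicate 3 was not, and without replicate 3 the gene passed (difference 2.66, adjusted p = 0.0153). At 75 mg/kg it was at 5.38, 5.49, 7.29 and 7.18, and the list's median level at 6.82, 6.67, 7.55 and 7.25. The same 2 tumours, replicates 3 and 4, were thus high in both at that dose, while at 87.5 mg/kg CDC20B stayed at 5.24 to 5.42 and the list at 6.09 to 6.62.

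**Figure D5:**
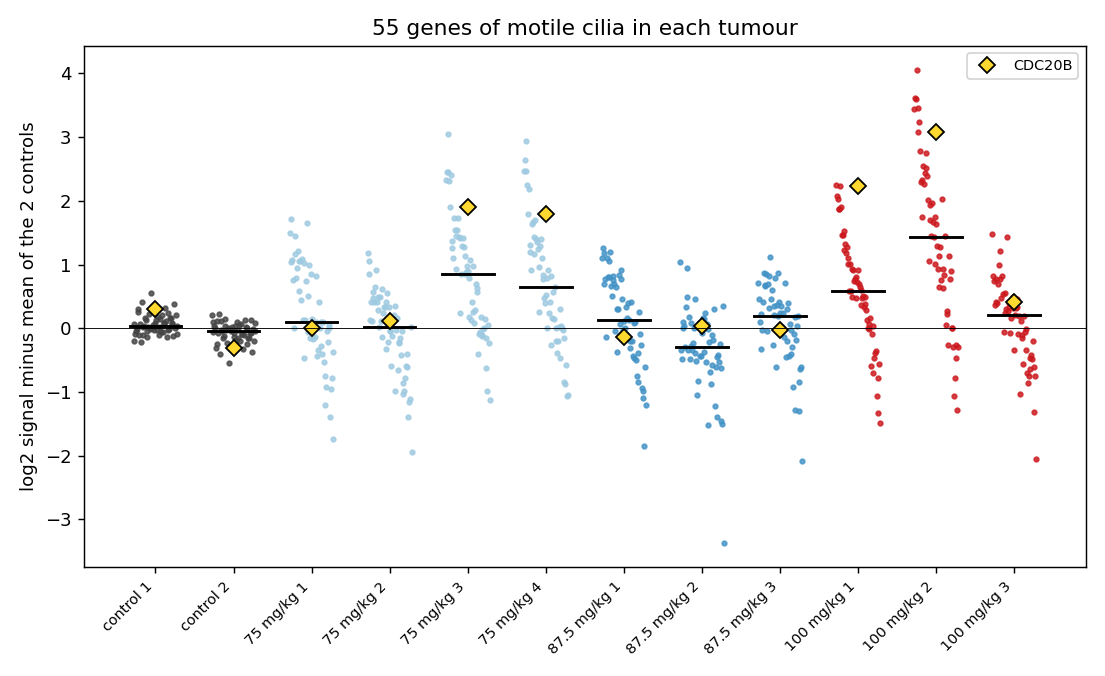
Log2 signal minus the mean of the 2 controls for 55 genes of motile cilia in each of the 12 tumours, with 1 point per gene, ordered alike within each tumour by the difference at 100 mg/kg, a bar at the tumour's median and a diamond for CDC20B. Points and diamond lie high in replicates 1 and 2 at 100 mg/kg and in replicates 3 and 4 at 75 mg/kg, and near 0 in replicate 3 at 100 mg/kg.

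The microRNAs of the CDC20B locus and their miR-34 relatives are shown because the list given next holds genes reported as their targets. The sequences are those of RefSeq on GRCh38.p14, written 5′ to 3′ with the seed, bases 2 to 8, in capitals, and the arrays did not measure them. The first 3 share 1 seed, and the last 2 share a seed moved by 1 base.
hsa-miR-34a-5p: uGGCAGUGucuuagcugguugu
hsa-miR-449a: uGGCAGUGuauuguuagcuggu
hsa-miR-449b-5p: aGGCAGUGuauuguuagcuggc
hsa-miR-34b-5p: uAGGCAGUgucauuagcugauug
hsa-miR-449c-5p: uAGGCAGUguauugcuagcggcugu

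Of 31 tested genes reported as targets of these microRNAs, 11 fell and 4 rose (35.5% lower against 10.2% of all genes, median -0.41). The count was 2 lower and 2 higher without control replicate 1, and 7 and 1 without control replicate 2, with 2 higher without replicate 1 at 100 mg/kg. BCL2, a reported target, was the 1 call kept whichever tumour was left out, and it rose, as given above. CCNB1, CDC25C, JAG1 and MET were lower by 1.30, 1.23, 1.19 and 0.75, and each missed without control replicate 1 (adjusted p = 0.0529, 0.0649, 0.0539 and 0.0597). Several of these targets also belong to the mitotic list above.

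Promoters of cilium genes are shown with the letters GTTGCC, or the reverse complement GGCAAC, in capitals, an arm of the X-box that RFX factors bind in cilium genes. These letters stood in 21 of 42 tested cilium genes with a promoter in the RefSeq table (50%), against 17.3% of all tested genes with one and 14.6% of all 27305 genes, over 300 bases and both strands. DNAI1 (chr9:34458555-34458804, plus strand) and CFAP126 (chr1:161367877-161368126, minus strand) hold them, and CDC20B (chr5:55173178-55173427, minus strand) does not. Each line gives the 250 bases before the annotated start on GRCh38.p14, 5′ to 3′ on the gene's strand.
DNAI1: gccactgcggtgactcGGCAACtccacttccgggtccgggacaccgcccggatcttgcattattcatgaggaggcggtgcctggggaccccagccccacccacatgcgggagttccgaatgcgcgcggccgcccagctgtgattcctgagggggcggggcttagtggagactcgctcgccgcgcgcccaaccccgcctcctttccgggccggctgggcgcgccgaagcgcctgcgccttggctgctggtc
CFAP126: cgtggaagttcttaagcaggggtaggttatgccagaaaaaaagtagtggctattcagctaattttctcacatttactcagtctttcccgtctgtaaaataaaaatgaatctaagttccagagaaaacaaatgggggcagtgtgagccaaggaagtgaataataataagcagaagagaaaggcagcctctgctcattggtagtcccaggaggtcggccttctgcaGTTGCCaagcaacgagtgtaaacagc
CDC20B: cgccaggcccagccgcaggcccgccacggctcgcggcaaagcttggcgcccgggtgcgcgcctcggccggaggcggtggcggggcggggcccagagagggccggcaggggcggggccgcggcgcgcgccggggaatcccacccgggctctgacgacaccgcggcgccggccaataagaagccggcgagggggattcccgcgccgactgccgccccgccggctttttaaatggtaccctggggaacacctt
The letters begin 234 bases before the start of DNAI1 and 26 before that of CFAP126. A match is a description of the sequence and does not show binding.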

How the data were processed

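Total RNA of the 12 tumours was labelled and hybridised to Illumina Expression BeadChips, per the labels' protocols. The deposited values are linear bead intensities that the authors had not normalized, and a detection p-value stands beside each intensity, per the file headers. Software of the scanner, slides and build are not given in the sources used here. Probe identifiers came from the value table, and its rows were matched to the detection p-values by equal signals, because the identifiers of the 2 deposited tables matched at 1 of 47323 positions. The platform annotation gave 1 symbol for 30113 probes, several for 8 and none for 17202. RefSeq knew 30074 of these probes and changed 0 symbols.

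The deposited intensities were turned into log2 values by neqc, which corrects background and quantile normalizes (offset 16, with negative controls inferred from detection p-values) of limma 3.58.1 in R 4.3.3 with statmod 1.5.0. The deposited values were unnormalized where a normalized table had been foreseen, so unnormalized log2 signals became the alternative. A probe was kept when 2 or more of 12 arrays detected it (p under 0.01), which left 20889. Each of 12300 genes was read from its brightest probe, and 3228 had several. The 4 groups were fitted together, so the spread comes from 12 tumours, with 8 residual degrees of freedom and Benjamini-Hochberg adjustment at 0.05. The number of arrays limits the precision.

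The members and the 36 gene lists were chosen with earlier results of these data known. Named genes were the 12 study genes, the 15 highest and 15 lowest differences past the threshold with groups that do not overlap, the 6 highest bounds in each direction, 8 per pair of doses and direction, and up to 5 members per list with the smallest p. Uncharacterised identifiers were passed over. Named outside this rule, after their values were seen, were MUC1, PLAU, AMOTL2, TGFB2, the cilium genes and the genes of the other observations. The fit was tested on simulated data with 200 changed genes. It recovered 74% of genes changed by 1 log2 unit and 93% of those changed by 2, and 8.24% of its calls were false. The simulated noise was normal and independent, with 1 spread per gene in all groups, and far fewer genes changed than passed in the data. These rates therefore need not hold for these tumours. Alternatives changed the background, offset, scaling, detection filter, choice of probe, model of the spread, weights of arrays and groups in the fit, added a replicate block, or left out each tumour. The labels do not say that a replicate number pairs tumours. Deviations of same-numbered tumours from their group means correlated at a median of -0.0305 over 15 pairs (-0.221 to 0.375), of which 3 were over 0.1. Such deviations cancel within each group, so these values cannot decide whether the numbers pair tumours. Plots used Python 3.11.15, pandas 2.3.3 and matplotlib 3.10.9.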

Additional observations from a re-analysis of the deposited data

Results flagged for a closer look

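Among probes left out of the tests because the table gave no single gene symbol, 66 passed the threshold and were detected in all 3 tumours at 100 mg/kg and in 0 of 2 controls. In all, 4598 such probes were detected, of which 348 were higher and 426 lower at 100 mg/kg (16.8% together, against 22.1% of all tested genes). The 66 of 4598 probes stand beside 186 of 12300 tested genes (1.51%) that passed with the same detection. The probes without 1 symbol were looked at because they lie outside the main measurement, and which transcripts they read was not tested.

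PROX1, a transcription factor of lymphatic endothelium and other tissues, was noticed because 2 doses lay on opposite sides of the controls. It had 6.92 and 7.07 in the controls, 8.25, 7.30, 7.70 and 7.18 at 75 mg/kg and 6.12, 6.06 and 6.20 at 100 mg/kg. The difference between the doses was -1.48 (SE 0.29, adjusted p = 0.0497 in limma, which tested it), and its own difference from control at 100 mg/kg did not pass (-0.86, adjusted p = 0.0988). The call between doses was lost with each of the 7 tumours of these doses left out in turn (adjusted p up to 0.162).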

How the results depend on the processing

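Over 14 alternatives other than left-out tumours, the count for 100 mg/kg against control ran from 2100 (replicate block) to 3513 (array weights), and from 1435 to 3251 with 1 of 12 tumours left out. On unnormalized signals 842 of 2686 genes were higher, against 1469 of 2723, and the median of all genes was -0.08. With arrays scaled to 1 median 1189 of 2620 were higher. The comparisons between doses moved far more. For 100 against 75 mg/kg the 82 genes became 5 on unnormalized signals, 164 with the probe of highest variance, 507 with array weights, 416 with only these 2 groups and 0 to 331 with 1 tumour left out. For 100 against 87.5 mg/kg the 96 genes became 30 without a detection filter, 428 with array weights, 1 with only these 2 groups and 0 to 276 with 1 tumour left out. Where limma gave 0 genes, 1575 to 1912 had an unadjusted p under 0.05. With the replicate number as a block, the counts were 2100, 2 and 9, although the labels do not say that the numbers pair tumours. The 1 direction that turned was CD68, at -1.52 (adjusted p = 0.0126) with the probe of highest variance. Of 198 named genes past the threshold, 55 lost it without control replicate 1 and 41 without control replicate 2. With 2 controls, their own spread is hardly measured, and a lone control is assumed to vary like the other groups. Where an alternative moved a call, the cause was not tested. Dim genes near the detection limit have only bounds, and their values without 1 tumour were added after the data were seen.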

Other observations

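Genes outside every list also differed widely among the 3 tumours at 100 mg/kg, and the choice of those given here followed from their values. The serum amyloid gene SAA2 had 4.70, 7.61 and 5.28 in replicates 1, 2 and 3, and 6.08 and 6.70 in the controls. It was detected in only 1 of 3 tumours at 100 mg/kg and in 1 of 2 controls. LCN2, an iron-withholding protein of inflamed epithelium, had 9.02, 11.52 and 9.70, and LTB, a lymphotoxin gene, 5.75, 8.18 and 6.38. Replicate 2, which was highest in the cilium genes, was the highest in these 3 as well. The hypoxia-induced peptide gene ADM had 10.06, 12.95 and 12.90 against 13.55 and 13.70 in the controls, so that replicate 1 alone was far lower. Replicate 1 was also the lowest in ANGPTL4 and IGFBP3, but in those genes replicates 2 and 3 lay well below the controls too. The imprinted RNA H19 had 8.55, 11.77 and 11.55, also lowest in replicate 1.

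By chromosome, the share of genes higher at 100 mg/kg was 19% of 458 tested genes on chromosome 4, against 11.9% of all genes, and 6.94% of 346 on chromosome 20. These shares are a description, and neighbouring genes are not independent.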
